A study of Mus musculus with 32 samples.

Results

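The genes described here carry fatty acids into the fat cell and prime them for use. They are 10 mouse genes chosen by name from the 20560 genes of the deposited table: Lpl, Angptl4, Cd36, Slc27a1, Slc27a4, Fabp4, Fabp5, Acsl1, Acsl3 and Acsl4. All 10 were found, and all 10 passed the filter on low values in every comparison. RNA was sequenced from 3T3-L1 cells, an established preadipocyte line of the mouse that becomes fat-like under a hormone mixture, in 32 libraries. At each of days 0, 3, 7 and 11 there were 4 control libraries, labelled shCtrl and genotype WT and made with a scramble hairpin, and 4 libraries labelled Zbtb9 knockdown. Of the knockdown libraries of a day, 2 came from shRNA 1 and 2 from shRNA 2, short hairpin RNAs against Zbtb9, whose protein carries zinc fingers and a BTB domain. The study asked how the knockdown altered gene expression at each time point of differentiation. All 12 groups carry the label adipogenic differentiation, and all went through the same media. Confluent cells were induced at day 0 with 1 µM dexamethasone, 0.5 mM isobutylmethylxanthine (IBMX) and 167 nM insulin, were moved to insulin alone at day 3, and were given plain culture medium from day 7. The labels call the cells preadipocytes at day 0, premature adipocytes at days 3 and 7, and mature adipocytes at day 11. They do not say how the hairpins were delivered, whether a hairpin stands for 1 pool or 1 clone of cells, or whether the numbered biological replicates are separate cultures, so p-values measure the spread between these libraries only.

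Fat cells take most of their fatty acids from circulating triglyceride. Lipoprotein lipase, made by Lpl, is secreted and frees fatty acids outside the cell, and the secreted protein of Angptl4 inhibits it. CD36 and the fatty acid transport proteins of the Slc27 family help long-chain fatty acids across the plasma membrane, and the binding proteins of Fabp4 and Fabp5 hold them in the cytosol. Long-chain acyl-CoA synthetases, the Acsl enzymes, then join them to coenzyme A, which traps them in the cell and is needed before they can be built into triglyceride, put into membranes or burned. Fabp4, Cd36, Lpl, Angptl4, Slc27a1 and Acsl1 are widely used as examples of genes under PPARgamma, the nuclear receptor that drives fat cell formation.

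Promoters from RefSeq (GRCm38.p6, 250 bases before to 50 after a gene start) were matched for 6 of the 10 genes. Those printed belong to the genes the results turn on: Acsl1, which had the largest knockdown difference of the 10 at days 3 and 7 and has promoters for 2 starts; Cd36, on which the shRNAs differed most at day 11; and Slc27a1, the member that went down where others went up, whose most upstream promoter of 3 is shown. They are written 5′ to 3′ on the gene's own strand, and capitals mark matches to the motifs searched.
Acsl1, upstream start, chr8:46470787-46471086, plus strand: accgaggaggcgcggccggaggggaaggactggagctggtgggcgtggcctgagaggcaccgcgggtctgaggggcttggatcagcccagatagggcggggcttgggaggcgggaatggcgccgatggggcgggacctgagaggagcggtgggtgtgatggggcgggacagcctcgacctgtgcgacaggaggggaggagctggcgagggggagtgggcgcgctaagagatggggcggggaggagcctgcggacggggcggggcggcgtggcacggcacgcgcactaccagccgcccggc
Acsl1, downstream start, chr8:46490716-46491015, plus strand: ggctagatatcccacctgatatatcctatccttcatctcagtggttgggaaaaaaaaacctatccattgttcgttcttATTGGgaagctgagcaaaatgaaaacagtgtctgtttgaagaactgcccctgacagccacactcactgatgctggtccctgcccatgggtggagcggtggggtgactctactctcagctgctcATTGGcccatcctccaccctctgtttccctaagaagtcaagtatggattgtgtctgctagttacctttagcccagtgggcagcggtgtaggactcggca
Cd36, chr5:17835847-17836146, minus strand: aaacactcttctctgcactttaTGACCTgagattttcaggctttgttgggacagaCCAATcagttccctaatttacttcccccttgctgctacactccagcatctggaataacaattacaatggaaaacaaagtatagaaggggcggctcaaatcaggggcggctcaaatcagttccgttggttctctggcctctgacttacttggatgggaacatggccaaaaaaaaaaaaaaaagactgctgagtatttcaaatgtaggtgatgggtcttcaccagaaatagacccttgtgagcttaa
Slc27a1, upstream start, chr8:71568621-71568920, plus strand: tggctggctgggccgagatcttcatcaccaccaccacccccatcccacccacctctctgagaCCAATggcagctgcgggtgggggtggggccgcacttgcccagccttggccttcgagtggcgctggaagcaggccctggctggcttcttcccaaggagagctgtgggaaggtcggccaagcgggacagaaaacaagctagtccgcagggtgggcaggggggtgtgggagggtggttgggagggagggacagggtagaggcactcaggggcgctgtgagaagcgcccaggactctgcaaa

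Motifs were searched on both strands as exact letters. The Cd36 promoter holds AGGTCA, the half-site that nuclear receptors share, once on the opposite strand, and CCAAT once. AGGTCA stands in 16.3% of the 32851 mouse promoters of the table, and CCAAT in 37.4%. A direct repeat of AGGTCA spaced by 1 base, the form that PPARgamma prefers, stands in 0.0396% of promoters and in none of the 9 promoters of these genes. The downstream Acsl1 promoter holds CCAAT 2 times, both on the opposite strand, while the upstream one holds none of the 6 motifs. GC content was 74.0% in the upstream Acsl1 promoter, 50% in the downstream one, 43.0% in that of Cd36 and 65.7% in the Slc27a1 promoter shown, beside a median of 52.7% over all promoters. Of the other motifs, CACGTG (in 7.15% of all promoters) was found once, in the most downstream Slc27a1 promoter, and neither TTGCNNAA, the C/EBP motif (10.8%), nor TATAAA (13.6%) was found in any of the 9. The libraries count reads per gene and do not tell the starts of a gene apart.

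Levels below are normalized reads, that is, reads rebuilt from the deposited log2 values and divided by the library's size factor. Log2 changes and adjusted p-values are from limma on the deposited log2 values, adjusted over all genes tested, and a gene is called where its adjusted p is under 0.05. Libraries held 22280363 to 31073726 reads in genes. At day 11 all control libraries (26486057 to 31073726) were deeper than all knockdown libraries (22839508 to 25511855), and on the other days the depths overlapped. Zbtb9 itself had few reads, 6.35 to 22.3 normalized reads in control libraries and 0 to 19.3 in knockdown libraries. The knockdown mean was 61.9%, 50.6%, 42.7% and 54.5% of control at days 0, 3, 7 and 11, with p = 0.029, 0.114, 0.029 and 0.143 in a two-sided exact permutation test of 4 against 4 libraries, which cannot go below 0.029. In limma Zbtb9 was called lower at day 7 (-0.35, adjusted p = 0.0288), was not called at days 0 and 11 (0.271 and 0.173) and did not pass the filter at day 3. At day 11 the shRNA 1 library of replicate 2 had 19.3 reads of Zbtb9, within the control range of 12.1 to 20. Without that library, a choice made after seeing the data, the day 11 mean was 31.2% of control, and 6 of the 10 genes were called at day 11 with it and without it. Among adipocyte markers outside the 10 genes, Adipoq had at most 2.78 normalized reads at day 0 and 2256 to 2927 in control libraries at day 11, while Lep had at most 5.8 at days 0, 7 and 11. The preadipocyte marker Dlk1 was at 66348 to 107235 at day 11, and its list of 10 markers summed to 435381 to 502111 in control and 363353 to 449924 in knockdown. The macrophage list summed to 46.7 to 80.6 in control and 89.3 to 150 in knockdown at day 7 and to 166 to 278 and 265 to 628 at day 11, most of it Cd68, with Ptprc at 3.04 or less in any library. Marker lists of brown fat, endothelium and skeletal muscle summed to at most 48.7 normalized reads in any library.

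Without knockdown, most of these genes rose early in differentiation. From day 0 to day 3 in control cells, 7 of the 10 genes rose and 2 fell, where 38.3% of all genes tested rose and 38.2% fell. From day 3 to day 7, 5 rose and 4 fell (37.6% and 36.6% of all genes), and from day 7 to day 11, 3 rose and 4 fell (28.9% and 26.1%). These shares lie in the range of the whole table except for the first step, where the median change of the 10 was 1.32 on the log2 scale against 0.00 over all genes. Neighbouring steps share the libraries of the day between them. With libraries rescaled to equal totals, the median of all genes moved to -0.12 for the first step, and the share of rises among all its calls went from 50.1% to 38.6%, with 9 of the 10 genes still called.

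Fewest of these genes were called different in knockdown before induction, and most were higher in it afterwards. At day 0, 1 of the 10 genes was called higher in knockdown than in control and 1 lower, where 0.817% of all genes tested were called higher and 2.44% lower. At day 3, 6 were higher and 1 lower, against 14.6% and 12.1% of all genes. The widest difference came at day 7, with 8 higher and 1 lower, against 24.9% and 22.6%. At day 11, 6 were higher and 0 lower, against 16.8% and 16.2%. The median log2 change of the 10 was 0.07, 0.53, 0.67 and 0.49 at days 0, 3, 7 and 11, while that of all genes tested stayed between -0.01 and 0.01. With shRNA 1 and shRNA 2 fitted as separate groups, 4 of the 10 were called at day 0, where 3340 of 13216 genes tested were. With libraries scaled to equal totals, higher calls made up 43.3% of all calls at day 0 in place of 25.1%, and 3 of the 10 genes were called there (Acsl1 at adjusted p = 0.0495). On the other days as many of the 10 were called as before. Higher calls then made up 53.2%, 44.7% and 44.4% of all calls at days 3, 7 and 11, in place of 54.7%, 52.4% and 50.8%. The same days differed in adipocyte markers: of the 9 tested, none a member, 0 were called at day 0 and all 9 were higher in knockdown at days 3, 7 and 11, with median log2 changes of 0.88, 2.05 and 1.96. Their summed level at day 7 was 15696 to 17274 normalized reads in control and 56788 to 76455 in knockdown, and at day 11 it was 12170 to 14635 and 41564 to 57223. Of 9 preadipocyte and fibroblast markers tested, 1, 2, 7 and 5 were lower in knockdown at days 0, 3, 7 and 11 and 1 was higher, at day 3. Their median log2 changes were -0.17, -0.17, -0.46 and -0.46. Of 2 macrophage markers tested, 1 was higher at days 7 and 11. In RNA from whole cultures, more cells of a type and more RNA per cell cannot be told apart, and the part of these marker differences in the results was not tested.

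**Figure D1:**
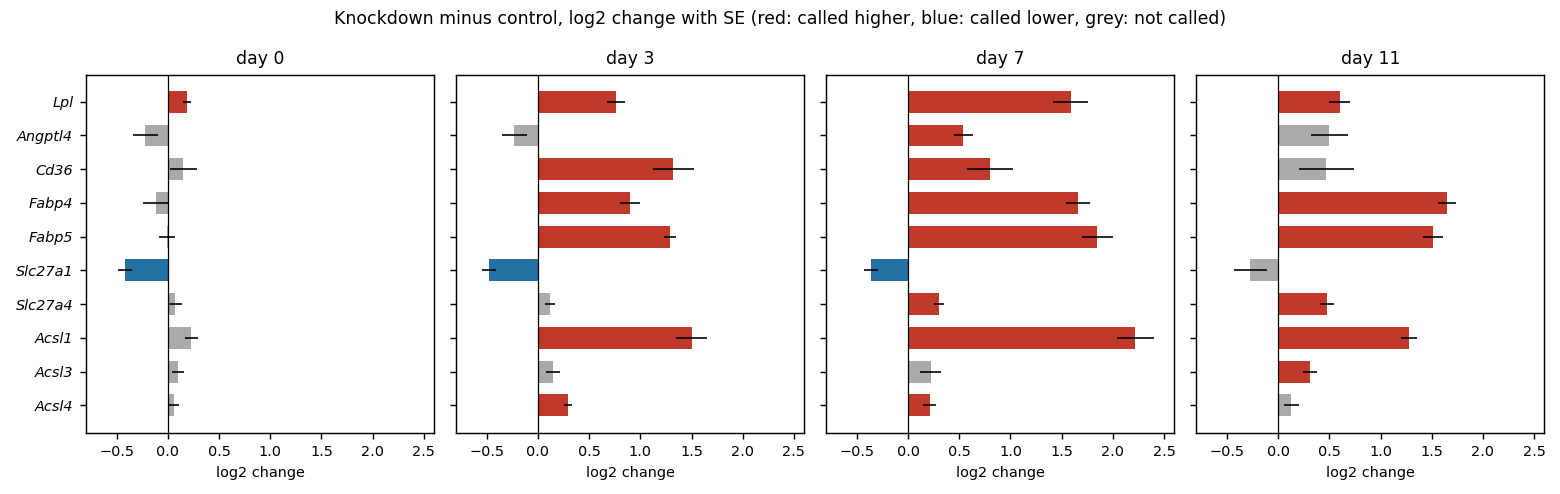
Log2 change of each gene, knockdown minus control, by day (x axis, log2 scale, from limma on 4 against 4 libraries), with bars running from 0 and whiskers of 1 SE. Red bars were called higher, blue bars lower and grey bars not called; Acsl1 at day 7 is the longest bar at 2.22, and Slc27a1 is the member called lower, at days 0, 3 and 7.

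Lpl, the lipase that frees fatty acids for uptake, was already abundant before induction and rose late in control cells and early in knockdown cells. At day 0 the control libraries held 18344, 18855, 18862 and 18710 normalized reads, the shRNA 1 libraries 22113 and 21961, and the shRNA 2 libraries 20577 and 20881. At day 3 the controls were at 19013, 16979, 17575 and 15513, shRNA 1 at 25041 and 29550, and shRNA 2 at 30502 and 34546. All knockdown libraries lay above all controls on both days. At day 7 the controls were still at 21176, 19830, 21134 and 22186, while shRNA 1 had reached 81066 and 83746 and shRNA 2 48436 and 56479. At day 11 control cells held 47200, 42296, 45328 and 40531, shRNA 1 81525 and 68634, and shRNA 2 62397 and 57621. The lowest knockdown library of day 7 was thus above the highest control library of day 11. As means, knockdown was 1.14, 1.73, 3.2 and 1.54 times control on the 4 days, and at day 7 it was 67431 ± 17634 against 21081 ± 966 (SD, n = 4 each). The log2 changes were 0.19 ± 0.04 (SE; adjusted p = 0.0267), 0.76 ± 0.09 (0.000206), 1.59 ± 0.17 (0.000145) and 0.60 ± 0.10 (0.000851). The day 0 call was lost on leaving out any of 6 libraries in turn, both of shRNA 1 and all 4 controls, with adjusted p of 0.0585 to 0.0959. In control cells Lpl rose by 0.28 from day 3 to day 7 (6.44e-06) and by 1.02 to day 11 (9.78e-17). Its fall of 0.11 from day 0 to day 3 (0.0320) had overlapping library ranges and was lost without control replicates 2, 3 or 4 of day 0 or 2 or 4 of day 3, each left out in turn (0.0544 to 0.192).

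Angptl4, whose product inhibits the lipase, went up, down and up again in control cells. It rose 3.22-fold from day 0 to day 3, fell to a mean of 3372 ± 256 at day 7 and rose 2.34-fold to day 11 (log2 changes 1.63, -1.17 and 1.19, adjusted p = 2.52e-23, 2.37e-19 and 4.73e-19). Its knockdown libraries split by hairpin. At day 3 controls held 8107, 7644, 7797 and 7502 normalized reads, shRNA 1 7106 and 8221, and shRNA 2 5311 and 6029, so that only shRNA 2 lay below control. At day 7 the controls were at 3067, 3308, 3682 and 3429, shRNA 1 at 5410 and 5675 and shRNA 2 at 4152 and 4779, and both hairpins lay above. By day 11 the controls stood at 7078, 8521, 8004 and 7940, shRNA 1 12090 and 15601 and shRNA 2 7987 and 10502, with shRNA 2 overlapping control. Knockdown as a whole was called higher at day 7 alone, by 0.54 ± 0.09 (adjusted p = 0.000184). The changes on days 0, 3 and 11 were -0.22 (0.356), -0.23 (0.188) and 0.50 (0.0606). The day 3 change was called without shRNA 1 replicate 2 (-0.34, 0.00854), and the last without the first shRNA 2 replicate (0.65, 0.00246) and in 3 other fits. Leaving out single libraries gave -0.315 to -0.115 at day 0, -0.335 to -0.131 at day 3 and 0.341 to 0.653 at day 11. With the hairpins as separate groups days 0 and 3 were called too (adjusted p = 5.61e-05 and 0.0001). Levels were below control with shRNA 2 at day 0 too, at 1816 and 1639 against 2306 to 2497.

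The balance of lipase to inhibitor followed from these courses. Per kilobase of transcript, the ratio of Lpl to Angptl4 reads in control cells was 6.23 ± 0.133, 1.79 ± 0.0928, 5.05 ± 0.415 and 4.5 ± 0.622 on days 0, 3, 7 and 11 (SD, n = 4). In knockdown cells the ratio was 8.45 ± 1.5, 3.74 ± 1.01, 10.7 ± 1.46 and 4.91 ± 1.19. Each knockdown library lay above each control library at days 0, 3 and 7, and the arms overlapped at day 11 (3.54 to 6.28 against 3.99 to 5.36). These ratios are given without a test.

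**Figure D2:**
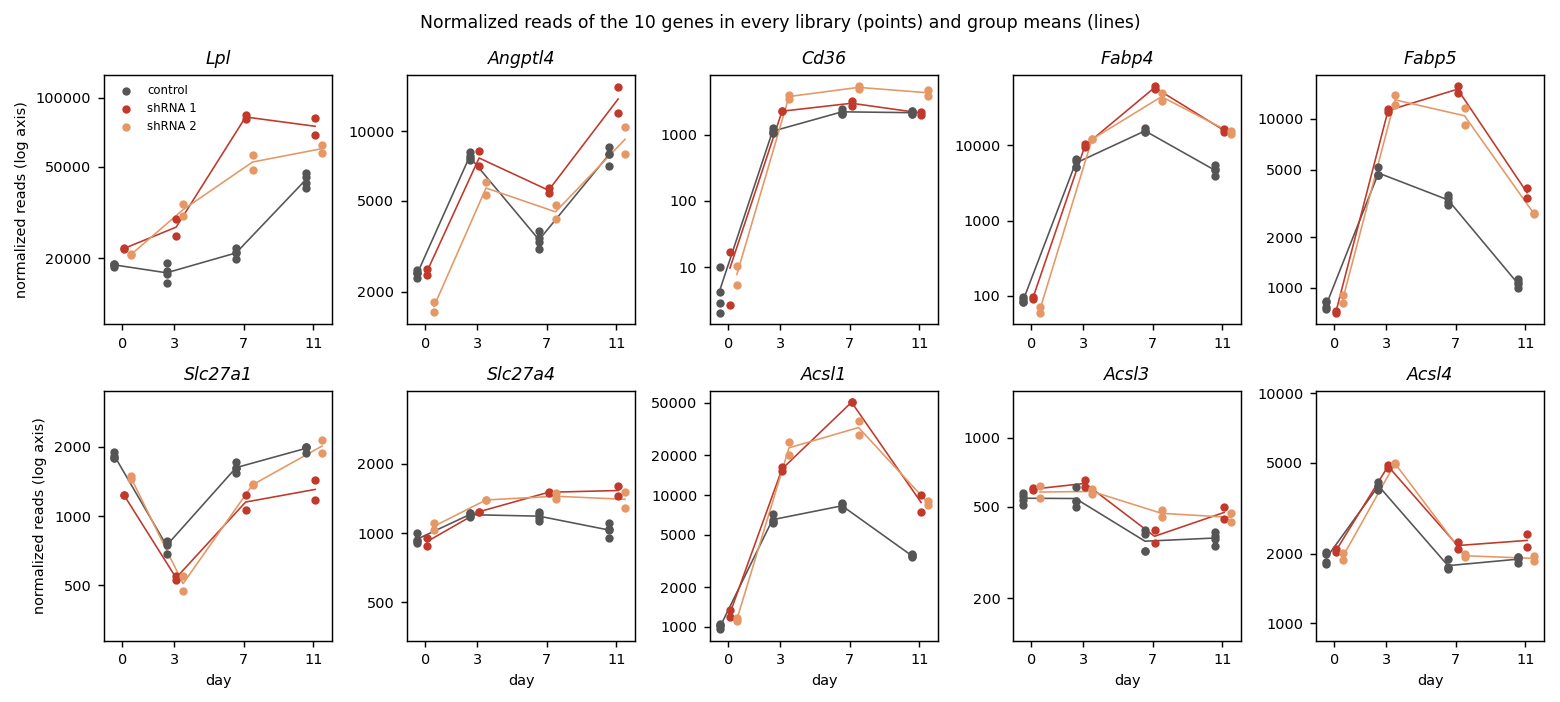
Normalized reads (y axis, log scale, its range differing between panels) of each of the 10 genes by day, with 1 point per library and lines through the group means; points of the 3 groups are set side by side within a day. Acsl1, Fabp5, Fabp4 and Lpl show both hairpins far above control at day 7, and Slc27a1 shows both below control at days 0, 3 and 7.

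Cd36, the membrane receptor that helps fatty acids enter the cell, was close to absent before induction. At day 0 its controls held 4.21, 2.02, 2.82 and 9.95 normalized reads and its knockdown libraries 2.66 to 16.6. It rose to 1130, 1062, 1246 and 1055 in controls at day 3 and to 2458, 2069, 2080 and 2217 at day 7, and stayed at 2290, 2022, 2240 and 2020 at day 11. The transform behind the deposited values draws rare genes together, so the fitted rise of 5.20 on the log2 scale from day 0 to day 3 understates the change in reads. With shRNA 1 Cd36 was at 2274 and 2235 at day 3, 2711 and 3233 at day 7, and 2231 and 1999 at day 11, so it began above control and ended with 1 library among the controls and 1 just below them. With shRNA 2 it was at 3492 and 4020, then 4888 and 5437, then 4695 and 3861, above control on all 3 days. Knockdown as a whole was higher by 1.32 ± 0.20 at day 3 (adjusted p = 0.00321) and 0.80 ± 0.22 at day 7 (0.0222), and by 0.47 ± 0.27 at day 11 without a call (0.231; 0.26 without the first shRNA 2 replicate and 0.66 without the second shRNA 1 replicate). The joint day 7 call was lost without the first shRNA 2 replicate (0.70, adjusted p = 0.0528). Taken alone, shRNA 1 changed Cd36 by 0.97, 0.41 and -0.02 at days 3, 7 and 11 (adjusted p = 3.52e-14, 5.30e-05 and 0.866), and shRNA 2 by 1.68, 1.18 and 0.96 (8.87e-20, 1.47e-11 and 1.99e-07). Both sets are against the same 4 control libraries of the day.

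Slc27a1, which encodes the fatty acid transport protein FATP1, was the member that knockdown lowered. The controls held 1783, 1829, 1794 and 1911 normalized reads at day 0, shRNA 1 1239 and 1230, and shRNA 2 1448 and 1492. At day 3 controls were at 746, 779, 686 and 766, shRNA 1 at 549 and 527 and shRNA 2 at 546 and 470. At day 7 the values were 1626, 1715, 1618 and 1544 in control, 1236 and 1066 with shRNA 1, and 1365 and 1373 with shRNA 2. The arms did not overlap on these 3 days, and the knockdown mean was 73.9%, 70.3% and 77.5% of control. The log2 changes were -0.42 ± 0.07 (adjusted p = 0.00821), -0.48 ± 0.07 (0.000161) and -0.36 ± 0.07 (0.000799). At day 11 the hairpins parted, with 1440 and 1173 reads for shRNA 1 and 2147 and 1891 for shRNA 2 beside 1999, 1886, 1992 and 2007 in control, and the joint change of -0.27 was not called (0.234). It was called without the first shRNA 2 replicate of that day (-0.40, 0.0384), and leaving out single libraries gave -0.401 to -0.124. In control cells Slc27a1 had a fall of 1.23 to day 3 (7.28e-23), where 7 of the 10 genes rose, then a rise of 1.07 to day 7 and a rise of 0.27 to day 11.

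Slc27a4, the gene of the related transporter FATP4, moved less. Over days 0, 3, 7 and 11 control libraries ranged from 908 to 996, 1175 to 1226, 1128 to 1238 and 948 to 1104 normalized reads. Knockdown libraries ranged from 882 to 1104, 1237 to 1395, 1404 to 1515 and 1289 to 1607, above every control from day 3 on. The change of 0.12 at day 3 was not called (adjusted p = 0.119), and those of 0.30 ± 0.05 at day 7 (0.000273) and 0.48 ± 0.07 at day 11 (0.000420) were. Slc27a1 therefore held a smaller part of the summed reads per kilobase of both transporter genes in knockdown cells, with day 3 shares of 36.2% ± 2.76 in knockdown and 46.9% ± 1.19 in control (SD, n = 4 each) and day 7 shares of 54.8% ± 3.44 and 66.2% ± 0.815.

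Fabp4, the fat cell's main cytosolic fatty acid binding protein, rose steeply in control cells, 65.1-fold from day 0 to day 3 where Cd36 rose 237-fold from its few reads, and was higher still in knockdown. Control libraries held 82.0 to 97.8 normalized reads at day 0 and 6608, 5198, 6141 and 5161 at day 3. They held 16781, 15457, 14868 and 14919 at day 7 and fell back to 5420, 4663, 4796 and 3869 at day 11. The successive log2 changes were 5.51, 1.39 and -1.68. At day 3 shRNA 1 was at 9582 and 10258 and shRNA 2 at 11956 and 12030. At day 7 shRNA 1 was at 55283 and 61361 and shRNA 2 at 38571 and 49763, and at day 11 the hairpins were at 16460 and 15026 and at 15371 and 13948. All knockdown libraries lay above all controls on the 3 days, 1.90, 3.30 and 3.24 times the control mean. The log2 changes were 0.90 ± 0.10 (adjusted p = 0.000192), 1.66 ± 0.12 (1.79e-06) and 1.65 ± 0.09 (4.22e-07). At day 0 the change of -0.12 was not called (0.595), though both shRNA 2 libraries (72.0 and 59.3) were below all controls.

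Fabp5, a second binding protein with a wider spread over tissues, peaked earlier. In control cells it was at 746 to 840 normalized reads at day 0, and at 5198, 4638, 4638 and 4665 at day 3. It fell to 3571, 3102, 3211 and 3399 at day 7 and to 1131, 1079, 1059 and 1002 at day 11 (log2 changes -0.51 and -1.57). With shRNA 1 the values were higher at day 7 than at day 3: it was at 11039 and 11396 at day 3, 14303 and 15690 at day 7 and 3896 and 3425 at day 11. With shRNA 2 it was at 12133 and 13818, then 9253 and 11635, then 2770 and 2721, lower at day 7 than at day 3 as in control cells. Knockdown was 2.53, 3.83 and 3.0 times control on days 3, 7 and 11, with no overlap on any of them. The log2 changes were 1.29 ± 0.06 (adjusted p = 4.46e-08), 1.85 ± 0.15 (1.57e-05) and 1.51 ± 0.10 (2.79e-06), and at day 0 the change was -0.01 (0.938). Processed pseudogenes that share 97.3% to 98.3% of 408 to 409 aligned bases with Fabp5 transcripts stand in the table as well; of these, Gm6166 had 68.2 to 1570 and Gm14328 at most 16.2 normalized reads, and reads of Fabp5 and these copies may have been split between them.

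Of the reads per kilobase of Fabp4 and Fabp5 together, Fabp4 held 10.9% ± 0.308, 57.0% ± 2.2, 83.7% ± 0.710 and 82.7% ± 1.33 in control cells on days 0, 3, 7 and 11 (SD, n = 4). In knockdown cells it held 49.9% ± 1.48 at day 3, below every control library, and 81.7% ± 0.732 and 84.0% ± 1.72 at days 7 and 11. At day 7 too the arms did not overlap (81 to 82.5% against 82.9 to 84.6%), and at days 0 and 11 they did. These shares are given without a test.

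Acsl1, the acyl-CoA synthetase most tied to fat tissue, showed the largest change at days 3 and 7. Its control libraries held 1025, 1030, 962 and 1047 normalized reads at day 0, and 7143, 6199, 6514 and 6175 at day 3. They held 8483, 8135, 7813 and 8732 at day 7 and 3573, 3392, 3542 and 3422 at day 11 (log2 changes 2.58, 0.34 and -1.21). With shRNA 1 the gene reached 15262 and 16309 at day 3 and 50695 and 50413 at day 7, then dropped to 10063 and 7505. With shRNA 2 it was at 20199 and 25425, then 28750 and 36287, then 9026 and 8429. Every knockdown library was above every control, also at day 0 (1108 to 1349). As means, knockdown was 2.97 times control at day 3 and 5.01 times at day 7 (41536 ± 10859 against 8291 ± 402, SD, n = 4 each), and 2.51 times at day 11. The log2 changes were 1.5 ± 0.15 (adjusted p = 0.000494), 2.22 ± 0.18 (2.69e-05) and 1.28 ± 0.08 (6.25e-07), while the day 0 change of 0.23 was not called (0.0695; 0.0407 without the first shRNA 2 replicate). A gene model of unknown coding status, Gm45244, overlaps 1039 exon bases of Acsl1 on the opposite strand and had at most 5.80 normalized reads.

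Acsl4, a synthetase with a preference for arachidonic acid, went up and came back in both arms. Over days 0, 3, 7 and 11 its control libraries ranged from 1813 to 2039, 3798 to 4126, 1728 to 1897 and 1819 to 1942 normalized reads. The rise of 1.0 and fall of 1.11 on the log2 scale were both called (4.53e-21 and 5.71e-22). Knockdown libraries ranged from 4739 to 4994 at day 3, above all controls by a log2 change of 0.29 ± 0.04 (adjusted p = 0.000140), and from 1933 to 2247 at day 7 (0.21 ± 0.06, 0.00710). At days 0 and 11 the changes were 0.06 and 0.13 (0.553 and 0.185). Leaving out single libraries gave 0.064 to 0.187 at day 11, and with the hairpins as separate groups that day was called (adjusted p = 0.0312).

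Acsl3, a synthetase of the endoplasmic reticulum and lipid droplets, was the least abundant of the 10 per kilobase in control cells from day 3 on. Its controls ranged from 511 to 574, 499 to 611, 321 to 395 and 339 to 389 normalized reads over the 4 days, and its fall of 0.57 from day 3 to day 7 was called (1.67e-08). Knockdown changed it by 0.10, 0.15 and 0.22 at days 0, 3 and 7 without a call (adjusted p = 0.391, 0.136 and 0.0874), and by 0.31 ± 0.07 at day 11 with one (0.00842; 430 to 502 reads). At day 7 it was called without the second shRNA 1 replicate (0.30, 0.0179). Utp14b overlaps 244 of its exon bases on the same strand, with 41.6 to 126 normalized reads. The 3 synthetases among the 10 genes were also summed per kilobase, leaving out others such as Acsl5. Of that sum, Acsl1 held 33.2% ± 0.686, 64.3% ± 1.64, 82.7% ± 0.443 and 65.5% ± 0.388 in control cells on days 0, 3, 7 and 11 (SD, n = 4). In knockdown cells it held 35.9% ± 1.18, 81.0% ± 3.3, 95.1% ± 1.28 and 80.5% ± 3.25, with no overlap of the arms on any day.

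**Figure D3:**
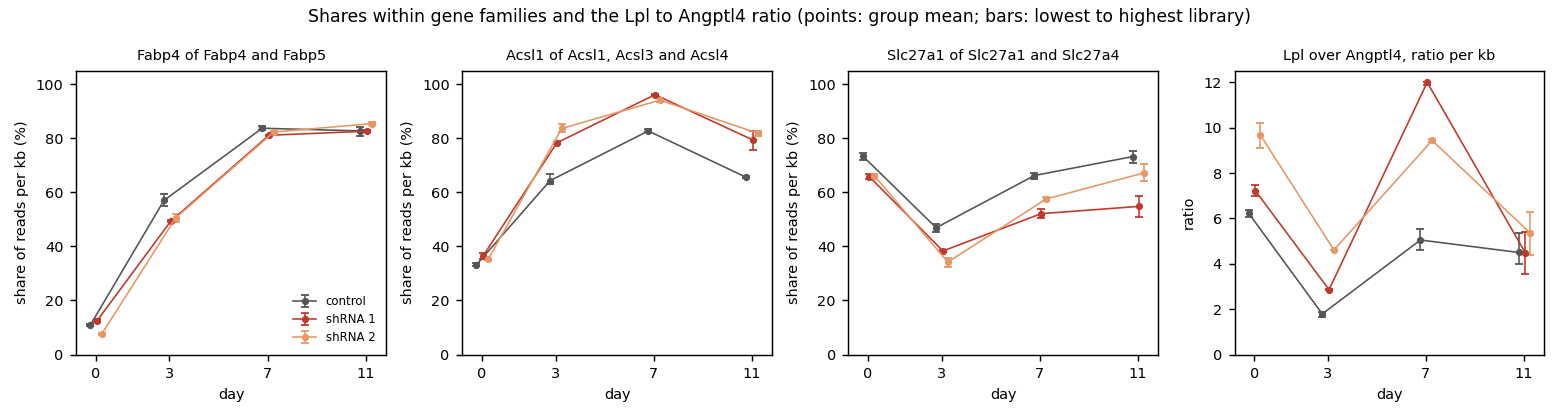
Share of the reads per kilobase of the family members among the 10 genes that 1 of them held, by day (first 3 panels, y axis in percent). The last panel gives the ratio of Lpl to Angptl4 reads per kilobase. Points are group means and bars run from the lowest to the highest library. Other family genes, such as Acsl5 (1695 normalized reads in control at day 7) and Slc27a3, are not in the sums. At day 7 the Acsl1 share is 82.7% in control and at least 93.4% in the libraries of both hairpins, and the Slc27a1 share is lower with both hairpins on all 4 days (51 to 70.4% against 70.9 to 75.1% at day 11).

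The change of the knockdown difference (knockdown minus control, with its sign) from day to day was tested in a fit of all 32 libraries. Between days 0 and 3 it moved up for 5 of the 10 genes and down for 0, against 3.69% up and 2.88% down among all genes tested. Fabp5 led with a move of 1.31 ± 0.16 on the log2 scale (adjusted p = 6.25e-06). It was followed by Acsl1 (1.26 ± 0.19, 0.000105), Cd36 (1.18 ± 0.31, 0.0223), Fabp4 (1.02 ± 0.17, 0.000223) and Lpl (0.58 ± 0.17, 0.0364). The Lpl call was lost on leaving out any of 12 single libraries in turn (adjusted p up to 0.0792), and that of Fabp4 with voom on rebuilt reads (1.10, 0.058). The call of Cd36, scarce at day 0, stood in 35 of 39 alternative fits. Its losses included the fit without the second shRNA 2 replicate of day 3 (0.0502), voom (0.893) and log2 of rebuilt reads plus 1 (0.68, 0.534). Scaled to equal totals, upward moves made up 42.4% of all calls for this step in place of 56.2%. Between days 3 and 7 it moved up for 5 and down for 0 (12.9% and 10.2% of all genes). Upward moves were 55.9% of all calls there, and 45.3% when scaled to equal totals. Both scalings called 5 of the 10 genes at each of these steps. The changes were 0.83 ± 0.17 for Lpl (0.000581), 0.77 ± 0.21 for Angptl4 (0.00808; from -0.23, not called, to 0.54), 0.76 ± 0.17 for Fabp4 (0.00115), 0.72 ± 0.19 for Acsl1 (0.00651) and 0.56 ± 0.16 for Fabp5 (0.0126). Between days 7 and 11 it moved up for 0 and down for 2 (5.05% and 7.66%). Those were Lpl, with a change of -1.0 ± 0.17 (0.000202), and Acsl1, with -0.94 ± 0.19 (0.00147). For Fabp4 the knockdown difference at day 11 differed from that at day 7 by -0.00 ± 0.17 (0.995) while its level fell 3.37-fold in knockdown cells and 3.31-fold in control cells. The 3 steps share libraries with each other and with the comparisons within each day.

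The hairpins were also compared with each other, with 2 libraries each in a fit of the 8 libraries of a day. At day 0, 3 of the 10 genes were higher with shRNA 2 than with shRNA 1 and 3 lower, where 18.6% of all genes tested were higher and 16.4% lower. At day 3, 3 were higher and 1 lower (10.6% and 8.94% of all genes). At day 7, 2 were higher and 5 lower (7.52% and 8.90%), with higher calls 45.8% of all calls, or 61.9% when scaled to equal totals. At day 11, 2 were higher and 4 lower (11.6% and 10.4%). Cd36 was the gene on which they parted most after induction, with shRNA 2 above shRNA 1 by 0.71 ± 0.07, 0.77 ± 0.08 and 0.98 ± 0.09 on days 3, 7 and 11 (adjusted p = 3.20e-09, 1.56e-06 and 3.28e-06). Angptl4 went the other way on all 4 days, by -0.49, -0.42, -0.30 and -0.57 (2.00e-08, 1.14e-05, 0.00472 and 0.0259). Slc27a1 was higher with shRNA 2 by 0.24, 0.24 and 0.60 on days 0, 7 and 11 (0.000888, 0.0245 and 0.000115).

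For Acsl1 and Fabp5 the hairpins differed in opposite directions at days 3 and 7, and the change between the days was not tested. Acsl1 was higher with shRNA 2 by 0.51 ± 0.12 at day 3 (adjusted p = 0.0280), lower by 0.63 ± 0.08 at day 7 (8.39e-06) and 0.01 ± 0.10 apart at day 11 (0.978). Fabp5 was higher by 0.20 at day 3 (0.00975) and lower by 0.51 at day 7 (0.000735) and 0.40 at day 11 (0.000990). Lpl was 0.25 higher at day 3 without a call (0.241), then 0.64 lower at day 7 (1.42e-07) and 0.31 lower at day 11 (0.0224). Fabp4 was 0.27 higher with shRNA 2 at day 3 without a call (0.227) and 0.40 lower at day 7 (0.0139). The Cd36 calls, those of Angptl4 at days 0 and 3, of Slc27a1 at days 0 and 11, of Lpl, Acsl1 and Fabp5 at day 7 and of Fabp5 at day 11 stood without any single library. Lost calls at day 3 were those of Acsl1 without either shRNA 1 library and of Fabp5 without shRNA 1 replicate 1 or shRNA 2 replicate 2, with no filter (0.13) or without the trend and robust options (0.16). At day 7, those of Angptl4, Fabp4 and Slc27a1 were lost without shRNA 1 replicate 2 or shRNA 2 replicate 1, that of Fabp4 also without control replicate 3, and that of Slc27a1 also without shRNA 2 replicate 2. At day 11, that of Lpl was lost without shRNA 1 replicate 1 or either shRNA 2 library, and that of Angptl4 without shRNA 1 replicate 2 or shRNA 2 replicate 1. The summed adipocyte markers were 10871 to 12050 normalized reads with shRNA 1 and 12177 to 14667 with shRNA 2 at day 3. At day 7 they were 71844 to 76455 and 56788 to 67581, and at day 11 41564 to 51686 and 51108 to 57223, and their part in these differences was not tested. Each comparison rests on 2 libraries a hairpin, and leaving out 1 library changed the number of the 10 genes called to between 3 and 6 at day 0, 2 and 5 at day 3, 4 and 7 at day 7, and 3 and 6 at day 11. The lowest counts came without the second replicate of either hairpin at day 0, the first shRNA 1 replicate at day 3, the second shRNA 1 or the first shRNA 2 replicate at day 7, and the first shRNA 2 replicate at day 11.

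**Figure D4:**
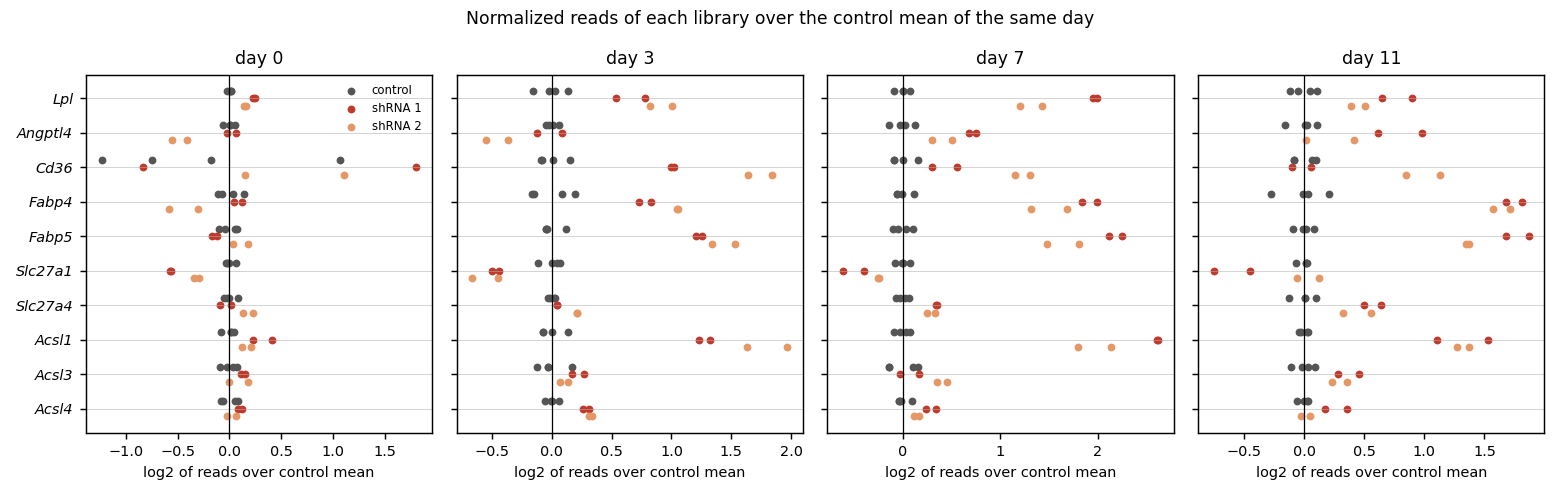
Log2 of each library's normalized reads over the control mean of its day (x axis, its range differing between panels) for the 10 genes, with 1 point per library and the groups offset vertically. At day 7 the Acsl1 points of both hairpins lie right of 1.5, and at day 11 the Cd36 points of shRNA 1 (2231 and 1999 normalized reads) lie beside the controls (2020 to 2290) while those of shRNA 2 lie right of 0.8.

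Compared per kilobase of transcript, which puts genes of unlike length on 1 scale, the order of the 10 genes changed through differentiation. In control cells Lpl led at day 0 with 4543 reads per kilobase, far above Fabp5 at 807, and Cd36 was last at 1.34. At day 3 Fabp4 (6448), Fabp5 (4848) and Lpl (4197) led, and Cd36 (318) did not differ from Slc27a4 (297) beyond the spread of the libraries. At day 7 Fabp4 (17306) stood above Lpl (5123), Fabp5 (3365) and Acsl1 (2026), and at day 11 Lpl (10653) was again first, ahead of Fabp4 (5231) and Angptl4 (2384). In knockdown cells Fabp4 reached 57193 at day 7, followed by Lpl (16387), Fabp5 (12888) and Acsl1 (10148), the last 3 with overlapping library ranges between neighbours. At day 11 Fabp4 (16966) and Lpl (16414) overlapped at the top, and Acsl3 was last in both arms at days 7 and 11, at 89.7 to 117 reads per kilobase as group means.

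Other genes of the route moved in both directions. Of 30 further genes for lipase folding and cleavage, lipoprotein receptors, other binding and transport proteins, other synthetases, acyl-CoA carriers and thioesterases, 24 were in the table and 17 passed the filter. Knockdown called 0 of these 17 at day 0, 4 higher and 3 lower at day 3 (14.6% and 12.1% of all genes), 4 and 4 at day 7 (24.9% and 22.6%), and 7 and 4 at day 11 (16.8% and 16.2%). The day 7 counts are near the share over all genes. The list had median log2 changes of -0.02, -0.04, 0.02 and 0.01. Among the 17, Dbi, which encodes the acyl-CoA binding protein, had the largest rise at days 7 and 11. It was higher by 0.75 (1714 to 2940 normalized reads as means, adjusted p = 3.10e-08) and 0.59 (0.000147), after 0.28 at day 3 (0.0289). At day 3 its hairpins differed by 0.35 (4.27e-05), and shRNA 1 (1880 to 1966) touched the control range (1667 to 1881). Acot2, a mitochondrial acyl-CoA thioesterase, was higher by 0.43, 0.31 and 0.47 at days 3, 7 and 11, and Lmf1, a lipase maturation factor, by 0.30, 0.28 and 0.18. Slc27a3 was 0.47 higher at day 11 and Acsbg1 0.47 higher at day 7 (adjusted p = 0.0321). At day 7 Acsbg1 was at 199 to 201 normalized reads with shRNA 1 but at 111 to 133 with shRNA 2, which overlapped control (81.1 to 127), and the hairpins differed by -0.60 (0.0143). Acot2 too was lower with shRNA 2 than with shRNA 1, by 0.41 at day 3 (0.0149) and 0.38 at day 11 (0.00412).

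Other genes of that list fell. Acsl5, a synthetase beside Acsl1, was 0.40 lower at day 7 (adjusted p = 6.48e-05; 1266 against 1695 normalized reads), and Lmf2 was 0.39 lower at day 7 and 0.30 lower at day 11. Acot7, a cytosolic thioesterase, was lower by 0.17, 0.39 and 0.24 at days 3, 7 and 11. Furin, a protease that cleaves lipase and ANGPTL proteins, was lower by 0.27, 0.26 and 0.26 at days 3, 7 and 11, and Lrp1, a large lipoprotein receptor, by 0.30 at day 3. Gpihbp1, which anchors the lipase to capillary endothelium, had a mean of at most 3.99 normalized reads in any group. Through control differentiation 8 of the 17 rose and 8 fell to day 3 (38.3% and 38.2% of all genes), 9 and 5 to day 7 (37.6% and 36.6%), and 4 and 7 to day 11 (28.9% and 26.1%).

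Likeness of course was measured over the 12 group means of the log2 values (shRNA 1, shRNA 2 and control by day), which share libraries and days, among 12082 named genes, and is given as a description. The genes nearest to Fabp4 were Foxo1 (Pearson r = 0.991), Nfs1 (0.990) and Abcg1 (0.988). Nearest to Fabp5 were Pank3 (0.991), Xbp1 (0.988) and Gfm2 (0.985), and to Acsl1 Cox14 (0.988), Slc5a6 (0.987) and Uqcr10 (0.986). Cd36 was nearest to Scarb2 (0.979), Abca1 (0.973) and Pex11a (0.972). Slc27a1 was nearest to Dgka (0.990), Ctsa (0.985) and Sema3b (0.985), and Acsl4 to Rars (0.995), Ndufaf4 (0.992) and Bpnt1 (0.991). For Lpl they were Sh3glb1 (0.961), Gpank1 (0.948) and Kctd3 (0.944). Angptl4 was nearest to Hax1 (0.963), Fbxo42 (0.963) and Trib3 (0.957). Slc27a4 had Ddah1 (0.971), Noct (0.958) and Polr3g (0.958), and Acsl3 Stk35 (0.945), Smc5 (0.937) and Fzd3 (0.933). Within the 10 genes the highest r were those of Cd36 with Fabp4 (0.97) and of Fabp5 with Acsl1 (0.96), and the lowest was that of Slc27a1 with Acsl4 (-0.96).

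All 10 genes are protein-coding, with positions here from GENCODE M21 (GRCm38). Lpl (ENSMUSG00000015568) spans 68880491 to 68907448, Acsl1 (ENSMUSG00000018796) 46471037 to 46536051 and Slc27a1 (ENSMUSG00000031808) 71568882 to 71587302, all on the plus strand of chromosome 8. Fabp4 (ENSMUSG00000062515, 10204088 to 10208576, minus strand) and Fabp5 (ENSMUSG00000027533, 10012548 to 10016607, plus strand) are near each other on chromosome 3. Cd36 (ENSMUSG00000002944) lies on chromosome 5 from 17781690 to 17888801 and Angptl4 (ENSMUSG00000002289) on chromosome 17 from 33773750 to 33781830, both on the minus strand. Slc27a4 (ENSMUSG00000059316) lies on chromosome 2 from 29802634 to 29817522 and Acsl3 (ENSMUSG00000032883) on chromosome 1 from 78657825 to 78707743, both on the plus strand, and Acsl4 (ENSMUSG00000031278) on the minus strand of chromosome X from 142317993 to 142390535.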

How the data were processed

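RNA-seq values of 32 libraries were taken from 1 deposited table with 1 value per gene and library; 0 columns were left unmapped. Per the labels' protocols, RNA came from a spin-column kit and libraries from a TruSeq RNA kit. The submitters' processing notes name TopHat2 2.1.0, Bowtie2 2.2.6, SAMtools 1.3.1 and HTSeq 0.6.1, without their roles; build, annotation, strand setting and transform are not given in the sources used here. The deposited values, named as normalized counts, are on a log2 scale (-1.56 to 17.99) and have the form of a regularized log, which draws rare genes towards their mean and so understates their changes.

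Inverting that form gave values within 0.1 of a whole read for 99.3% of entries (20% by chance), and in all libraries for 94.7% of genes. For 7 of the 10 genes the largest distance was at most 0.0441 of a read, and for Lpl, Acsl1 and Angptl4 it was 0.401, 0.274 and 0.111. These reads, divided by size factors, give the levels; on simulated reads of 19852 genes 100.00% were rebuilt. No molecular identifiers are mentioned, so read numbers bear on counting error alone. Reads per kilobase use the bases of CCDS-tagged transcripts.

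Groups and replicate numbers come from sample titles, and the labels give no batch. limma 3.58.1 (R 4.3.3, trend and robust) was fitted to the log2 values of genes that reached 10 or more (2 raised to the deposited value) in 4 or more libraries: 1 fit per day for knockdown against control (4 against 4), 1 per day for the hairpins, 1 of the 16 controls and 1 of all 32 libraries. Adjusted p-values follow Benjamini and Hochberg, over every gene tested. On simulated data the day fits recovered 91.4%, 88.9%, 91.5% and 92.5% of 198, 198, 199 and 199 changed genes among 13203, 13125, 13251 and 13239 at days 0, 3, 7 and 11, with 8.59%, 3.83%, 6.19% and 7.07% of calls false. The simulated knockdown libraries of a day did not differ by hairpin. These rates therefore do not describe fits that pool hairpins which differ, as they did here. Gene copies were sought with BLAST+ 2.17.0 (at least 200 bases and 90% identity). The genes and lists were chosen with earlier results of these data known. Named are all 10 genes, Zbtb9, up to 3 called rises and falls a day of the 30 further route genes, and the 3 genes most alike to each of the 10. Alternatives were other filters, rescaling, other fits, rebuilt reads with pseudocounts of 1 and 10, voom, a replicate block and single libraries left out.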

Additional observations from a re-analysis of the deposited data

Results flagged for a closer look

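Tests of the change of the knockdown difference (knockdown minus control, with its sign) between days passed the threshold 12 times among the 10 genes. From day 0 to day 3 the difference moved up for Lpl (0.58 on the log2 scale), Cd36 (1.18), Fabp4 (1.02), Fabp5 (1.31) and Acsl1 (1.26). From day 3 to day 7 it moved up for Lpl (0.83), Angptl4 (0.77), Fabp4 (0.76), Fabp5 (0.56) and Acsl1 (0.72). For Angptl4 it went from -0.23 at day 3, not called and -0.02 with shRNA 1 alone, to 0.54 at day 7. From day 7 to day 11 it changed by -1.0 for Lpl and -0.94 for Acsl1. The Lpl mean rose 2.08-fold in control cells while that of knockdown cells was 67431 at day 7 and 67544 at day 11, and the Acsl1 mean was 2.38-fold lower at day 11 than at day 7 in control and 4.74-fold lower in knockdown cells.

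Among 80 groups of 4 control or 4 knockdown libraries tested for a value far from the rest, 2 had one, where chance gives about 1 in 20. Fabp5 had 5198 normalized reads in control replicate 1 of day 3, beside 4638 to 4665 in the others. Slc27a1 had 1886 in control replicate 2 of day 11, beside 1992 to 2007. At day 11 knockdown did not change Slc27a1 by a call, and an shRNA 2 library stood at 1891.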

How the results depend on the processing

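Over the 14 comparisons, 1116 of the single-gene results under other settings kept their direction and side of the threshold, 28 lost a call, 18 gained one and 6 reversed. The reversals were of values near 0: Fabp5 at day 0 (-0.014; 0.013 rescaled, 0.049 with the replicate block), Slc27a4 in control from day 3 to 7 (0.034 rescaled), the Fabp4 effect from day 7 to 11 (0.012 rescaled) and Cd36 between hairpins at day 0 (0.062 on log2 of rebuilt reads plus 1, 0.110 with voom). Of the 10 genes, 2 were called at day 0, but 1 without the trend and robust options, 1 in a fit of all 32 libraries, 4 with the hairpins as separate groups and 0 with the replicate block. At day 11, 10 were called with separate hairpins in place of 6. Separate groups leave the change itself the same (Cd36 0.469 at day 11 in both fits) and take the difference between hairpins out of the spread. For the effect change from day 0 to 3, voom called 3 in place of 5, and for the hairpins at day 7, 4 of 7 were called without the trend and robust options. The causes of the other shifts were not tested.

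Leaving out single libraries gave 1 to 3 calls at day 0 (1 without either shRNA 1 or any control library), 3 to 6 for the effect change from day 0 to 3 (3 without shRNA 2 replicate 2 of day 3), and 3 to 6, 2 to 5, 4 to 7 and 3 to 6 for the hairpins at days 0, 3, 7 and 11. Signs also turned in such fits for knockdown at day 0 in Fabp5 (-0.076 to 0.033), for control steps in Acsl3 to day 3 (-0.060 to 0.031), Slc27a4 to day 7 (-0.042 to 0.001) and Cd36 to day 11 (-0.070 to 0.013). For effect changes they turned in Angptl4 (-0.116 to 0.088) and Slc27a4 (-0.000 to 0.102) to day 3, and in Angptl4 (-0.202 to 0.110), Fabp4 (-0.129 to 0.088) and Slc27a1 (-0.045 to 0.233) to day 11. Between hairpins they turned in Cd36 (-0.341 to 0.229) and Acsl3 (-0.125 to 0.039) at day 0, Slc27a1 at day 3 (-0.180 to 0.018), and Acsl1 (-0.200 to 0.210) and Acsl3 (-0.147 to 0.015) at day 11.

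Correlations of same-numbered deviations ran from -0.17 to 0.29 and were not over 0.1 in every pair on any day, so the numbers were not taken to pair the libraries; they were highest at day 11 (0.29, 0.19, 0.21, 0.14 and -0.02). With the replicate block, the genes called among all tested went from 430 to 0 at day 0, 3506 to 845 at day 3, 6328 to 4112 at day 7 and 4382 to 1652 at day 11, while of the 10 genes 0, 6, 7 and 5 were called. The calls lost were those of Lpl and Slc27a1 at day 0 (adjusted p = 0.555 and 0.493), Cd36 at days 3 and 7 (0.054 and 0.116), Acsl4 at day 7 (0.13) and Acsl3 at day 11 (0.0703), between hairpins Lpl at day 0 (0.0531) and Acsl1 at day 3 (0.2), and the Lpl effect change from day 0 to 3 (0.0561). Each hairpin has replicates 1 and 2 alone, so within a day the block gives control replicates 3 and 4 a term each. Those libraries then no longer bear on the difference, and fewer libraries measure the spread. At day 0 the change of Lpl was 0.195 with the block and 0.188 without it, and that of Slc27a1 was -0.404 and -0.421. With the hairpins as separate groups the counts over all genes were 3340, 5311, 7414 and 6129. At day 0 Cd36 had 2.02 to 16.6 normalized reads, and its knockdown change of 0.15 in limma was not called (adjusted p = 0.575). With so few reads a missing call does not show that the arms were equal.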
